A study of Mus musculus with 4 samples.

Results

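Serpins are proteins of one fold that present a flexible reactive loop to a protease. In the inhibitory members the protease cuts this loop and is trapped in a covalent complex, while other members have lost inhibition and act as chaperones or secreted factors. The genes described are Serpinb5, which encodes maspin, together with Serpinb2, Serpinb8, Serpinf1, Serping1 and Serpinh1. They were chosen by name as serpins, with Serpinb5 selected on its higher signal in p63 cells. Of 7 genes on the list, 6 had a probe set annotated with exactly 1 gene symbol, each with 1 probe set, out of 19938 named genes. Serpine2 had no probe set annotated with exactly 1 gene symbol and is not analysed here.

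The cells were mouse embryonic fibroblasts prepared at day E13.5, of C57BL/6 background, transformed with SV40 and lacking both BAX and BAK. All groups share this genotype. There were 4 groups of 1 array each: p63 cells with etoposide, p63 cells with mock treatment, GFP cells with etoposide and GFP cells with mock treatment. The p63 and GFP cells carried a retrovirus for p63, a transcription factor of stratified epithelium, or for GFP. Treatment lasted 6 h, and etoposide is a topoisomerase II poison that breaks DNA. The etoposide concentration is given per millilitre in the treatment protocol and per microlitre, with the same number, in the sample characteristics. The labels do not give the species or isoform of p63, nor the number of clones behind each line.

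Signals are given as log2 values after RMA, a standard array summary, where 1 unit is 2-fold. No group was replicated, so no difference has an error or a test, and a gene is called where its difference reaches 1 in size. A gene was kept where its highest signal reached 5.87, which left 10698 genes. That is the 50th percentile of all values of probe sets with exactly 1 gene symbol. This brightness filter is not a measured background. Of the 6 genes, Serpinb5, Serpinb8, Serpinf1 and Serpinh1 were kept, and Serpinb2 and Serping1 stayed below the filter on all 4 arrays. Serpinb8 was kept by 0.03, with 1 array above the filter. Where the dimmer reading was below the filter it was raised to 5.87, and the fold is then written as at least that size.

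Serpinb5, Serpinb2 and Serpinb8 belong to clade B, the serpins without a classical secretion signal, and lie in a row of serpin genes on chromosome 1. Maspin is made by epithelia, does not trap proteases in the usual way and is a known target of p53 family proteins. The 250 bases before the RefSeq start (GRCm38.p6) are shown for these 3 genes and for Serpinb10 of the same row. All 4 windows hold TGANTCA, a loose form of the AP-1 motif with any middle base, and Serpinb5 also holds p53 family half-sites. The usual AP-1 motif has C or G in the middle. That base is G in Serpinb8 but A in Serpinb5, Serpinb2 and Serpinb10. Serpinb5 lies at chr1:106860925-106861174, Serpinb2 at chr1:107511173-107511422, Serpinb10 at chr1:107528753-107529002 and Serpinb8 at chr1:107589756-107590005, all on the plus strand. Capitals mark matches to the motifs searched, and overlapping matches run together.
Serpinb5: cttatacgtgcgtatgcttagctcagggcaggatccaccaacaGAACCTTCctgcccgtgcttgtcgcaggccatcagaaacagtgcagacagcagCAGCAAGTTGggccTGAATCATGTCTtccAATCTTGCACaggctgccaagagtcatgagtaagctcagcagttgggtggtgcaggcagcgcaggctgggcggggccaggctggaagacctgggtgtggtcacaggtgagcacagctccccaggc
Serpinb2: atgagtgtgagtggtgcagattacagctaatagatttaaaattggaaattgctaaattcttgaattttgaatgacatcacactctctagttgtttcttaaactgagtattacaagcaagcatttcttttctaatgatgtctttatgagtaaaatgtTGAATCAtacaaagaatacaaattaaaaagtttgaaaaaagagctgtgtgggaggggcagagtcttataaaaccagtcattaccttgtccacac
Serpinb10: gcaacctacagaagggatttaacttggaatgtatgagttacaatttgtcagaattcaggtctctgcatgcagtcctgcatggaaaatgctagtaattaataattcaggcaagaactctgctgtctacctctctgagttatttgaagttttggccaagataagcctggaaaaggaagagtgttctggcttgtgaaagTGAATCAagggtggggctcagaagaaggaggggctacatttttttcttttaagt
Serpinb8: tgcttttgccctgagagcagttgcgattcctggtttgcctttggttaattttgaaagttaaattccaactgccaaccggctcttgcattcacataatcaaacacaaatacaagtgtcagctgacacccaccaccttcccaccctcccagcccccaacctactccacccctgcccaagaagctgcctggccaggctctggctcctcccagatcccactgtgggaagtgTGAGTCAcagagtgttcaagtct

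TGANTCA began at position -140 before Serpinb5, -94 before Serpinb2, -54 before Serpinb10 and -23 before Serpinb8, counted from the gene start. Both strands read the same letters for this motif. It was present in 6.75% of 32851 promoter windows of the same length, some genes having more than 1 window. In the chromosome 1 row, 7 of 11 serpins with a window held it, and they comprised those 4 genes and Serpinb7, Serpinb11 and Serpinb12. Over all 41 measured serpins with a window the number was 9. The row arose by gene duplication, so its promoters are not independent of one another.

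The p53 family element was searched as a pair of 10-base half-sites, 0 to 13 bases apart, each with its central 4 bases intact and at most 2 mismatches around them. Of the 5 genes described that have a window, Serpinb5 alone held such a pair, as did 8.05% of all windows. Among all 41 measured serpins with a window 8 held one, including Serpinb12 of the same row, which was below the filter on all arrays, and Serpina3n, whose pair had 1 mismatch against 3 in each pair of Serpinb5. Its half-sites CAGCAAGTTG, AATCATGTCT and AATCTTGCAC began at -154, -138 and -125, and the TGANTCA match overlaps the second. Serpinb5 also held GAANNTTC, the letters of a heat shock element, found in 6.69% of windows. A second Serpinb2 window, with a later start, held TTCNNNGAA, a STAT-type motif found in 7.02%. Serpinf1 and Serpinh1 held none of these motifs, nor did any of the 5 hold the core of the interferon-stimulated response element, found in 2.98%. A match is a description of letters and not of binding.

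With p63, Serpinb5 was far higher under both treatments, Serpinb8 was higher on dim readings, and Serpinf1 was lower at bright readings. Serpinh1 differed little, and Serpinb2 and Serping1 stayed dim. Of the 4 genes kept, 2 were higher by at least 1 with p63 under both treatments, against a background of 0.925% of all genes kept, and 1 was lower under both, against 0.486%. The separate backgrounds were 1.38% higher and 0.514% lower in etoposide-treated cells, and 2.42% higher and 3.76% lower in mock-treated cells. Serpinb5 and Serpinb8 reached the filter only on p63 arrays, so both were kept through the group where they were high. In etoposide-treated cells all Serpinb8 readings were below the filter. Since the set was also assembled around this contrast, the counts describe it and are read no further. Both contrasts use the same p63 and GFP lines, so p63 and any other difference between the lines cannot be told apart.

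Serpinb5 read 9.26 in p63 cells with etoposide and 8.69 in p63 cells with mock treatment, against 4.66 in GFP cells with etoposide and 3.32 in GFP cells with mock treatment. Both p63 arrays were high and both GFP arrays were below the filter. Here and below, the share of all genes whose arrays separate in this way is not given, so a separation is only a description. With the GFP readings raised to the filter, the signal was at least 10.5-fold higher in etoposide-treated and at least 7.04-fold higher in mock-treated p63 cells. The differences were 4.60 and 5.37 as read, and 3.39 and 2.82 with the GFP readings raised. These are the values that put Serpinb5 at the head of the set, so they are a description.

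Serpinb8 encodes a clade B serpin whose human form inhibits the protease furin. Its signal was 5.55 in p63 cells with etoposide and 5.90 in p63 cells with mock treatment, against 4.33 and 4.32 in GFP cells with etoposide and mock treatment. The p63 arrays were the higher ones under both treatments, by 1.22 with etoposide and 1.58 with mock treatment. With readings raised to the filter the mock difference was 0.03, or at least 1.02-fold, and no bound can be given for etoposide-treated cells, where both readings were below it.

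Serpinf1 encodes pigment epithelium-derived factor, a secreted serpin without inhibitory activity that restrains vessel growth. It read 7.71 in p63 cells with etoposide and 7.43 with mock treatment, against 9.01 in GFP cells with etoposide and 8.84 with mock treatment. All 4 readings were above the filter, and the p63 readings were below both GFP readings. The differences were -1.30 in etoposide-treated and -1.42 in mock-treated cells, 2.46-fold and 2.67-fold lower with p63.

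Serpinh1 encodes HSP47, the collagen chaperone of the endoplasmic reticulum. Its signal was 8.74 in p63 cells with etoposide and 9.06 with mock treatment, against 8.64 in GFP cells with etoposide and 8.79 with mock treatment. The 4 arrays lay within 0.42 of each other, and the p63 differences of 0.10 and 0.27 under etoposide and mock treatment did not reach 1.

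Serpinb2 encodes plasminogen activator inhibitor 2. It read 5.17 and 4.58 in p63 cells with etoposide and mock treatment, against 5.19 and 4.68 in GFP cells with etoposide and mock treatment. Serping1 encodes the C1 inhibitor of complement and the contact system. It read 4.81 and 4.51 in p63 cells with etoposide and mock treatment, against 4.52 and 4.70 in GFP cells with etoposide and mock treatment. Neither gene reached the filter on any array, and their p63 differences were -0.01 and 0.30 in etoposide-treated and -0.10 and -0.19 in mock-treated cells.

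**Figure D1:**
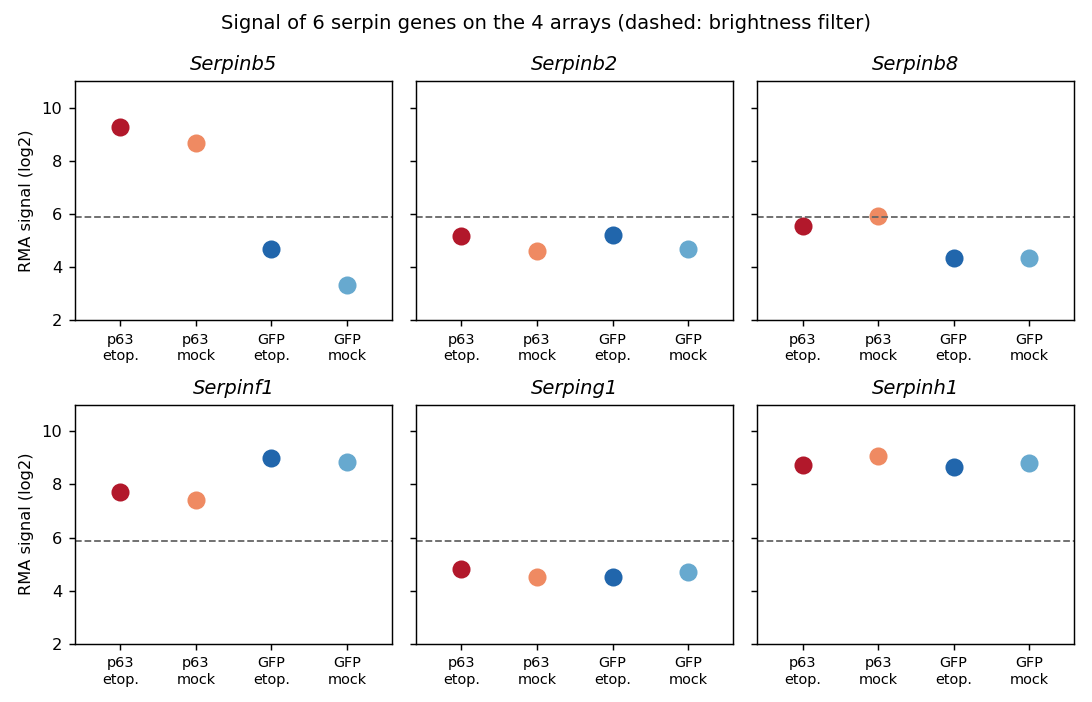
RMA signal (log2, vertical axis) of each of the 6 genes on the 4 arrays, 1 point per array, with p63 cells left of GFP cells and the brightness filter of 5.87 dashed. Serpinb5 is above the filter in p63 cells only, Serpinf1 is lower in p63 cells at bright readings, and Serpinb2 and Serping1 lie below the filter throughout.

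**Figure D2:**
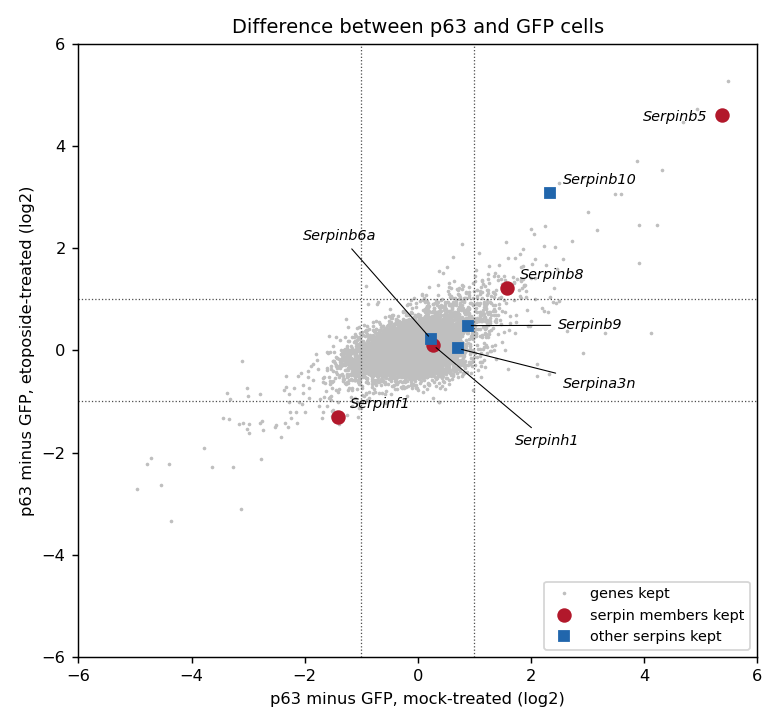
Difference between p63 and GFP cells for the 10698 genes kept (grey), with mock-treated cells on the horizontal and etoposide-treated cells on the vertical axis (log2), and dotted lines at a size of 1. Serpinb5 stands at 5.37 and 4.60, Serpinb10 and Serpinb8 also lie beyond 1 on both axes, and Serpinf1 lies below -1 on both. Serpinb10 and Serpinb8 each had 3 readings below the filter.

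Along chromosome 1, Serpinb5 stands at one end of the serpin row, and Serpinb10 and Serpinb8 stand next to each other at the other end. Serpinb10 encodes bomapin, a nuclear clade B serpin known from blood-forming cells. It read 6.05 and 5.01 in p63 cells with etoposide and mock treatment, against 2.96 and 2.67 in GFP cells with etoposide and mock treatment. Its p63 differences of 3.09 and 2.34 ranked 9 and 28 from the highest, but 3 of its 4 readings were below the filter. Raised to the filter, it was at least 1.13-fold higher in etoposide-treated cells, and no bound can be given in mock-treated cells.

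The 8 measured serpins between Serpinb5 and Serpinb10 (Serpinb12, Serpinb13, Serpinb3a, Serpinb3d, Serpinb3c, Serpinb11, Serpinb7 and Serpinb2) were below the filter on all arrays. Their p63 differences lay between -0.15 and 0.69 under etoposide and between -0.10 and 0.62 under mock treatment, with Serpinb13 at 0.69 and 0.45. Serpinb3b is not analysed here.

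Of the 6 genes on the other side of Serpinb5, 5 were kept. Vps4b, an ATPase of endosomal sorting and the nearest, differed by 0.02 under etoposide and 0.44 under mock treatment. Kdsr, an enzyme of sphingolipid synthesis, stood at 0.29 and -0.11, Bcl2, the anti-apoptotic gene, at -0.17 and -0.73, and Zcchc2 at 0.09 and -0.19. Phlpp1, a phosphatase of AKT, was called lower in mock-treated cells, at -1.09, and stood at 0.28 in etoposide-treated cells. The dim gene Tnfrsf11a stood at -0.46 and 0.24. Beyond Serpinb8, the 5 measured genes from Cdh7 to Tsn lay between -0.24 and 0.20 under etoposide and between -0.28 and 0.40 under mock treatment. None of these neighbours was higher by 1 with p63.

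**Figure D3:**
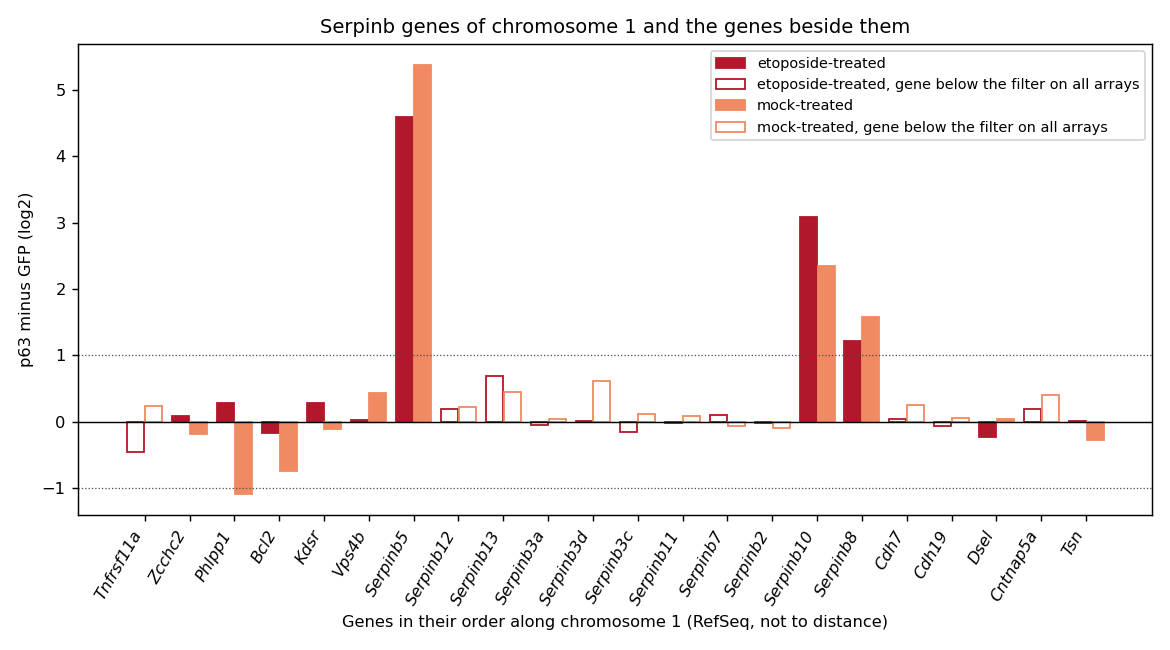
Difference between p63 and GFP cells (log2, vertical axis) for genes in their RefSeq order along chromosome 1, without distances, in etoposide-treated (dark) and mock-treated cells (light). Open bars mark genes below the filter on all arrays, and the bars of Serpinb5, Serpinb10 and Serpinb8 pass 1 under both treatments as read. With dim readings raised to the filter, Serpinb10 stands at 0.18 and 0.00 under etoposide and mock treatment. Serpinb8 then stands at 0.00 and 0.03, and Serpinb5 still passes 1.

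After etoposide, no gene of the set was higher or lower by 1 in both lines, where 2.57% of all genes kept were higher and 0.608% lower. In p63 cells 0 of the 4 genes kept was called, where 6.28% of all genes kept were higher and 1.33% lower. In GFP cells Serpinb5 was called higher, 1 of 4, against a background of 3.52% higher and 2.12% lower. That call rests on the readings of 4.66 with etoposide and 3.32 with mock treatment, a difference of 1.34 that is 0.00 once both are raised to the filter. In p63 cells, where both readings were bright, Serpinb5 was higher with etoposide by 0.57, or 1.49-fold.

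Trp63, the mouse p63 gene, had an etoposide difference of similar size in p63 cells. It read 9.29 with etoposide and 8.75 with mock treatment, a difference of 0.54, against 5.59 and 4.87 in GFP cells with etoposide and mock treatment. In p63 cells the etoposide differences of Serpinb5 and Trp63 ranked 1816 and 1981 from the highest of 10698 genes kept. Neither reached 1, and many other genes rose as much. Whether the probes read the construct or the endogenous gene is unknown here, and the part of Trp63 in the Serpinb5 values was not tested.

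Serpinb2 had etoposide differences of 0.59 in p63 cells and 0.51 in GFP cells, on readings below the filter. Both etoposide arrays read above both mock arrays for this gene. Serpinf1 stood at 0.28 and 0.16 in p63 and GFP cells, and Serpinh1 at -0.32 and -0.15. Serpinb8 stood at -0.35 in p63 cells and 0.01 in GFP cells, and Serping1 at 0.31 and -0.19. Subtracting each gene's etoposide difference in GFP cells from its own in p63 cells gave values from -0.77 for Serpinb5 to 0.49 for Serping1. Of the 4 genes kept, 0 reached a size of 1, against 2.84% of all genes kept above 1 and 1.09% below -1. With dim readings raised to the filter the value for Serpinb5 was 0.57.

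**Figure D4:**
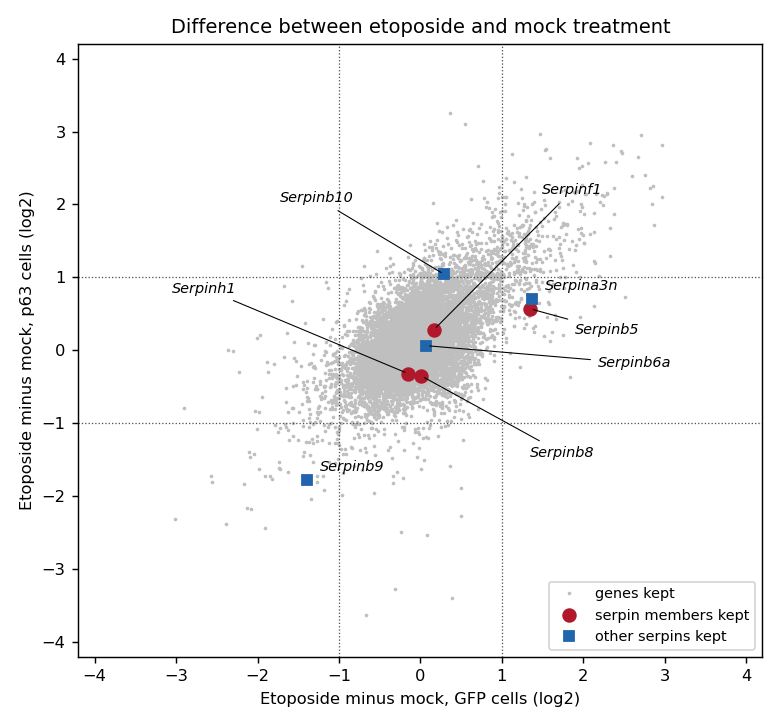
Difference between etoposide and mock treatment for the genes kept (grey), with GFP cells on the horizontal and p63 cells on the vertical axis (log2), and dotted lines at a size of 1. Serpinb9 lies below -1 on both axes, and Serpinb5 and Serpina3n pass 1 in GFP cells only.

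Of 42 other serpin genes measured, 38 were below the filter on all arrays, and 4 were kept: Serpinb10, Serpinb9, Serpina3n and Serpinb6a. The median p63 difference over the 42 was -0.06 under etoposide and 0.22 under mock treatment, beside -0.10 and 0.16 for all 9240 genes not kept. Both medians of the serpins lay within 0.1 of those of the genes not kept. The 42 include the 4 kept serpins, and the genes not kept include the 38 dim serpins. Serpinb1a, an inhibitor of neutrophil elastase chosen after its values were seen, read 4.42 and 5.71 in p63 cells with etoposide and mock treatment, against 3.54 and 3.82 in GFP cells with etoposide and mock treatment. It was below the filter throughout.

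Serpinb9, an inhibitor of granzyme B, was lower after etoposide in both lines. It read 4.32 with etoposide and 6.10 with mock treatment in p63 cells, and 3.83 with etoposide and 5.22 with mock treatment in GFP cells. The differences were -1.78 and -1.39, and -0.23 and 0.00 with readings raised to the filter. Serpinb10 was higher by 1.04 after etoposide in p63 cells and stood at 0.29 in GFP cells, and its difference in p63 cells was 0.18 with readings raised. Serpina3n, an acute-phase serpin related to antichymotrypsin, read 6.06 with etoposide and 5.36 with mock treatment in p63 cells, and 6.02 with etoposide and 4.64 with mock treatment in GFP cells. Its differences of 0.70 and 1.38 were 0.19 and 0.15 with readings raised. Serpinb6a, a broadly expressed clade B serpin, was bright on all arrays and differed by at most 0.30 among them.

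The genes whose values over the 4 arrays lay nearest to those of Serpinb5, each gene taken relative to its own mean, were Krt14, Igfbp2, Krt5, Trp63 and Dsp. The Euclidean distances were 0.79, 0.87, 1.14, 1.28 and 1.43 (log2). Serpinb5 was chosen on its p63 difference, which makes up most of its variation over the arrays. Its nearest genes could therefore only be others with a large p63 difference, and the list is a description. Krt14 and Krt5, the keratins of basal epidermis, differed between p63 and GFP cells by 4.72 and 4.48 under etoposide and by 4.94 and 4.68 under mock treatment. Their GFP readings were all below the filter, and with these raised the differences were 4.40 and 3.85 under etoposide and 4.28 and 4.02 under mock treatment. Nearest to Serpinb8 were Lifr (0.12), Crybg1 (0.15) and Plxdc1 (0.18), and nearest to Serpinf1 were Mme (0.14), H2-Q5 (0.22) and Slc7a3 (0.24). Mme encodes neprilysin, a cell-surface peptidase, and read 5.03 and 4.90 in p63 cells with etoposide and mock treatment, against 6.31 and 6.16 in GFP cells with etoposide and mock treatment. Its p63 readings were below the filter, and with them raised the differences were -0.44 under etoposide and -0.29 under mock treatment. Serpinh1 varied little, so its nearest genes, Slc18b1, Mea1 and Ndufs1, at distances of 0.01 to 0.03, are genes that also varied little. With 4 arrays many profiles lie close together.

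The proteases and partners of these serpins were counted from lists of known members. Of 20 measured genes of plasminogen activation and pericellular proteolysis, 13 were kept, and 3 were higher after etoposide in both lines, beside the 2.57% of all genes kept. Plau, which encodes the urokinase that Serpinb2 inhibits, was higher by 1.01 in p63 cells and 1.96 in GFP cells, but by 0.91 in p63 cells after cyclic loess, which ends that call. Procr, the endothelial protein C receptor, stood at 1.10 and 1.25, and St14, the epithelial protease matriptase, at 1.41 and 1.13 with 2 readings below the filter. With those raised, St14 stood at 0.88 and 0.47 and lost both calls. The median etoposide difference of the 13 was 0.44 in p63 cells and 0.11 in GFP cells, beside 0.10 and -0.08 for all genes kept, and over all 20 it was 0.03 and 0.16. With p63, 0 of 13 was called under etoposide, beside 1.38% higher and 0.514% lower of all genes kept. Under mock treatment 1 was higher and 2 were lower, beside 2.42% and 3.76% of all genes kept. The p63 medians of the 13 were 0.27 under etoposide and 0.12 under mock treatment, beside 0.02 and -0.14 for all genes kept. Over all 20 they were -0.06 and 0.13, so the sign under etoposide turns with the dim genes.

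Among 15 measured genes of the complement and contact systems, which Serping1 restrains, 1 was kept. Masp1, a protease of the lectin pathway, read 7.19 and 6.89 in p63 cells with etoposide and mock treatment, against 8.18 and 7.87 in GFP cells with etoposide and mock treatment. Both p63 readings were below both GFP readings, and each difference was -0.99, just short of 1 in size. Over the processing settings it ran from -1.03 to -0.98 under etoposide and from -1.11 to -0.84 under mock treatment. Whether Masp1 is called thus depends on the setting.

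Of 22 measured genes of collagen folding and export, the pathway of HSP47, 21 were kept and 0 was called with p63 under both treatments, beside the 0.925% higher and 0.486% lower of all genes kept. Their median p63 difference was 0.32 under etoposide and 0.15 under mock treatment, beside 0.02 and -0.14 for all genes kept. With p63, 1 of the 21 was higher under mock treatment, beside 2.42% of all genes kept. Under etoposide 0 was called, beside 1.38% higher and 0.514% lower. Plod2, a lysyl hydroxylase that modifies collagen, was higher after etoposide by 1.10 in p63 cells and 1.18 in GFP cells. It was the only one of the 21 called in both lines, beside 2.57% of all genes kept higher in both. In GFP cells 2 others were lower after etoposide, beside 2.12% of all genes kept. All 10 collagen genes were kept and 0 was called in any of the 4 comparisons, where from 0.514% to 6.28% of all genes kept were called in each direction, with Col1a2 at -0.31 and -0.26 and Col6a3 at -0.80 and -0.57 for p63 under etoposide and mock treatment. Of 7 measured proprotein convertases 5 were kept and 0 was called. At those shares, lists of this length with no call are not set apart from other genes. Furin, the protease that human SERPINB8 inhibits, differed by 0.14 and 0.11 with p63 under etoposide and mock treatment.

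Facts of the arrays bear on the dim readings. The SD over all probe sets was 2.38 with etoposide and 2.28 with mock treatment in p63 cells, and 2.37 with etoposide and 2.39 with mock treatment in GFP cells. In mock-treated cells the median p63 difference was 0.16 over genes not kept and -0.14 over genes kept, so dim genes tended to read higher, and bright genes lower, in mock-treated p63 cells than in mock-treated GFP cells. With mock treatment 39.2% of calls between p63 and GFP were higher as deposited, 23.9% (200 higher, 638 lower) with arrays centred and 53.6% (319 and 276) after cyclic loess. Of 10 fibroblast markers 5 were at or above the filter on every array, among them Col1a1, Col1a2 and Vim, and 5, including Thy1, Pdgfra and Dcn, were below it. The median p63 difference of the 5 bright ones was -0.23 under etoposide and -0.26 under mock treatment. Vim stood at -0.42 and -0.56, Pdgfrb at -0.23 and -0.62, and Col1a2 at -0.31 and -0.26. Col3a1 stood at -0.04 and 0.01 and Col1a1 at 0.11 and -0.16, so the bright markers were not uniformly lower. Their part in the lower Serpinf1 signal was not tested. Markers of simple epithelium reached the filter in 1 or 2 of 6 cases on each array, with Epcam and Cdh1 below it throughout. Macrophage markers did so in 0 or 1 of 5 and endothelial markers in 0 of 4. The macrophage marker was Cd68, higher by 1.68 after etoposide in p63 cells and by 0.72 in GFP cells, while Ptprc was below the filter throughout. The Cd68 reading of 5.20 in mock-treated p63 cells was below the filter, and with it raised the difference in p63 cells was 1.00. Krt8 read 5.93 and 6.98 in p63 cells with etoposide and mock treatment, against 6.22 and 5.97 in GFP cells with etoposide and mock treatment, and its part in the serpin values was not tested. In bulk RNA, fewer cells of a type and less RNA per cell cannot be told apart.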

How the data were processed

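Expression was measured on 4 Affymetrix mouse arrays, 1 per group. Per the labels' protocols, Trizol-extracted RNA was amplified and biotin-labelled with a NuGEN kit for very small RNA amounts. The deposited values are log2 signals. The submitters' processing notes name RMA and Affymetrix Expression Console as the authors' tools. RMA corrects the background, equalises the probe intensity distributions and summarises each probe set, so it removes shifts shared by most genes. No version or genome build is stated there. Precision is limited by having 1 array per group.

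Of 35512 probe sets, GEO's annotation of 2016 named 1 gene for 21789, several for 1621 and left 12102 unnamed here. Of those with 1 gene, 21698 matched RefSeq (GRCm38.p6) by Entrez identifier. The probe set with the highest mean stood for a gene. Genes were kept where the highest signal reached the 50th percentile of values of probe sets with 1 gene. Differences were computed across all genes with Python 3.11.15 and pandas 2.3.3, and limma 3.58.1 gave the cyclic loess alternative. The other alternatives were a 75th percentile filter, no filter, dim readings raised to the filter, arrays centred on their medians, probe sets of a gene combined by their median, and calls at 1.5-fold. No test was made. The differencing steps were tested on simulated data.

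The members and lists were chosen with earlier results of these data known. Named were the members, other serpins kept and called in a comparison, at most 12, the 6 coding genes on each side of Serpinb5, Trp63, list genes called in both pairs of an effect or otherwise the 2 largest, and the nearest profiles, 5 for Serpinb5 and 3 for other members kept, without clone names. The serpin row beyond the neighbours, Serpinb6a, Serpinb1a, Krt8 and the other markers were named after their values were seen. Promoter letters are RefSeq's (GRCm38.p6), the 250 bases before each start.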

Additional observations from a re-analysis of the deposited data

Results flagged for a closer look

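Opposite directions in the cell lines or treatments picked out Serpinb8 and Serping1, and the differences between them were not tested, since each value comes from single arrays. The etoposide difference of Serpinb8 was -0.35 in p63 cells and 0.0097 in GFP cells. That of Serping1 was 0.31 in p63 cells and -0.19 in GFP cells, and its difference between p63 and GFP cells was 0.30 under etoposide and -0.19 under mock treatment. All 4 readings of Serping1 and 3 of 4 of Serpinb8 were below the brightness filter.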

How the results depend on the processing

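Serpinb5 and Serpinf1 kept their p63 calls under both treatments in all 7 alternatives run. In the main setting 2 members were higher with p63 under each treatment. That number was 1 under each with the 75th percentile filter, with dim readings raised to the filter, with arrays centred and after cyclic loess. It is Serpinb8 that was lost: its highest reading no longer reached the filter in 3 of these, and in the raised setting its differences were 0.03 and 0.00. With readings raised, 0 members were higher after etoposide in GFP cells, against 1. For the other serpins the main numbers were 1 in each of the directions called. With the 75th percentile filter or with readings raised, each was 0. Without a filter 2 were higher with p63 in mock-treated cells and 2 lower after etoposide in p63 cells. At 1.5-fold, 3 were higher with p63 in mock-treated cells and 2 higher after etoposide in p63 cells.

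Over all genes, calls higher and lower with p63 were 148 and 55 under etoposide and 259 and 402 under mock treatment, and calls after etoposide were 672 and 142 in p63 cells and 377 and 227 in GFP cells. In the same order they were 88 and 32, 145 and 262, 441 and 94, and 224 and 140 with the stricter filter, and 525 and 200, 721 and 1720, 1766 and 588, and 993 and 1014 at 1.5-fold. Centring gave 638 lower with p63 under mock treatment, and raised readings gave 31 lower under etoposide. Loess moved the median p63 difference of genes kept in mock-treated cells to -0.03 and centring to -0.27, against -0.14 as deposited. No replicates exist to leave out.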
